A study of Mus musculus with 6 samples.

Results

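The guidance genes described here are the Eph receptors, their ephrin ligands, the semaphorins and the plexin and neuropilin receptors that bind them. They were taken by symbol from the 24393 genes that the count tables list, and 52 genes made up the set. The set held 13 Eph receptors, 8 ephrins, 20 semaphorins, 9 plexins and 2 neuropilins. Of these, 48 passed the filter on low counts and were tested together with 13600 genes in all. The other 4 were too low to test. Epha10 had 0 counts in all 6 libraries, which at 3 counts allows a level of up to 0.240 CPM (counts relative to the scaled size of a library). Epha5 had 18, 0 and 5 counts in CONTROL 1, 2 and 3 and 11, 4 and 4 counts in HOXA13 1, 2 and 3. Epha6 had 4 counts in CONTROL 3 and 0 elsewhere, and Plxnb3 had 17 counts in HOXA13 3 and 0 elsewhere.

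Ephrins are ligands held in the membrane of a neighbouring cell, by a lipid anchor in the ephrin-A class and by a transmembrane segment in the ephrin-B class. Their receptors are tyrosine kinases, so that contact between cells signals into both of them, and in the gut epithelium this contact keeps cells of different position apart. Class 3 semaphorins are secreted and mostly act through a complex of a neuropilin, which binds the ligand, and a plexin-A receptor, which carries the signal. Class 4 to 7 semaphorins are bound to the membrane and mostly bind plexins directly. Both systems are known for repelling growing axons, and both also shape epithelia and vessels.

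The cells were KH2 mouse embryonic stem cells (mESC; strain given as C57/BL/6), a line made for doxycycline-inducible genes. The HOXA13 group carried an inducible human HOXA13 gene with its intron, in clones chosen after selection, and the CONTROL group was its control. Each group had 3 biological replicates, which are called by the numbers in their titles. The labels give all 6 the same treatment, namely 6 days on M15 feeder cells of mesodermal origin with Activin-A, basic FGF, CHIR and Noggin, doxycycline at 1.25 µg/ml from day 4, sorting of CXCR4+ and E-cadherin+ cells on day 6, and a further day with doxycycline. The comparison asks which of these genes differ in differentiated cells when HOXA13 is on. As a check of the labels, a row under a human gene identifier (ENSG00000106031), without a symbol in the files, had 0 counts in every CONTROL library and 2497, 7666 and 6572 counts in HOXA13 1, 2 and 3. Mouse Hoxa13 had at most 10 counts in any library.

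Libraries held 12279884 to 17331638 counts, and 3 counts corresponded to 0.176 to 0.240 CPM, a floor that covers counting error only. CPM are counts scaled to the TMM-normalised library size. CONTROL 2 stood apart from the other CONTROL libraries. Over the tested genes, none of which is an independent replicate, its Spearman correlation was 0.908 with CONTROL 1 and 0.931 with CONTROL 3, but 0.951 to 0.961 with the HOXA13 libraries. Markers of other cells also differed between libraries. The summed level of 10 mesenchyme and feeder markers was 6463, 605 and 4271 CPM in CONTROL 1, 2 and 3, against 184, 984 and 598 CPM in HOXA13 1, 2 and 3, with Lum at or near 0 in every library. Vim made up most of this sum, at 4351, 548 and 3576 CPM in CONTROL and 155, 722 and 481 in HOXA13. Of the 9 tested, 8 had fold changes below 0, while Thy1 was higher in HOXA13 without overlap. The 6 mesonephros markers, for the origin of the M15 feeder cells, overlapped in sum. They summed to 68.1, 43.9 and 52.8 CPM in CONTROL against 25, 59.2 and 50.5 in HOXA13. The sum of 10 epithelial markers was 1696, 5656 and 3996 CPM in CONTROL against 6756, 7538 and 8599 in HOXA13. The sum of 6 pluripotency markers was 107, 1075 and 180.4 CPM in CONTROL against 537, 375 and 333 in HOXA13, highest in CONTROL 2 and HOXA13 1. The 8 definitive endoderm markers summed to 38.1 to 76.4 CPM, with Gata6 at 5.69 to 35.8, Gata4 at 13.1 to 31.9 and Hhex at 4 to 14 CPM, but Cer1 was at 0 in all libraries, Gsc reached at most 1.29, Sox17 at most 4.84 and Foxa2 at most 5.04 CPM, and the sorting marker Cxcr4 lay between 2.25 and 11.3 CPM. Cdh1 (E-cadherin), the other sorting marker, was at 192, 1292 and 702 CPM in CONTROL 1, 2 and 3. In HOXA13 1, 2 and 3 it was at 1732, 1689.7 and 1893 CPM, higher without overlap. The part of this cell mixture in the values below was not tested. In bulk RNA, fewer cells of a type and less RNA per cell cannot be told apart.

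HOX13 proteins bind the letters TCGTAAA and CAATAAA, and these were searched on both strands of the RefSeq promoter windows of build GRCm38.p6, each of 300 bases, of which 250 precede the start site. The 2 motifs do not contain each other. Windows were found for 46 members, 59 windows in all. TCGTAAA occurred in 1 of the 59 windows (1.69%), against 0.597% of all 32851 windows, and CAATAAA in 2 of 59 (3.39%), against 4.60% of all windows. The members with a match were Sema4c for TCGTAAA, and Sema3e and Epha6 for CAATAAA. The promoters of Sema4c and Sema3e are shown because these members were expressed and carry the matches, with 250 bases before and 30 bases from the start site on, and the motif in capitals. In Sema3e the capitals are the reverse complement of CAATAAA.
Sema4c, chr1:36558352-36558631, minus strand: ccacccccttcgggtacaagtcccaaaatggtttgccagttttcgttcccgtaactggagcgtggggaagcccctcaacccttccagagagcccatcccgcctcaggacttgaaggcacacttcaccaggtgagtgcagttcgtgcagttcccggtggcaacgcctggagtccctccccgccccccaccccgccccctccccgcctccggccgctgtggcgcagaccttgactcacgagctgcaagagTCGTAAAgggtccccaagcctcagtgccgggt
Sema3e, chr5:14025026-14025305, plus strand: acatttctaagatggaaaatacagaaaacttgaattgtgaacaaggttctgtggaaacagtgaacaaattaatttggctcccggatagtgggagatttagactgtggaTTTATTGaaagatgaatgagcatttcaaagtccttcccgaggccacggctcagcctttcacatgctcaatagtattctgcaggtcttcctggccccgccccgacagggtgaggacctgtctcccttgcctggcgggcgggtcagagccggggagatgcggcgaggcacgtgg
A match is a run of letters and not a measured binding site.

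No guidance gene passed the threshold between HOXA13 and CONTROL cells. With edgeR's quasi-likelihood test and Benjamini-Hochberg adjustment over all genes, 0 of 48 had an adjusted p under 0.05, against 0.309% of all tested genes (42 of 13600). At an unadjusted p under 0.05 there were 9 members, 7 higher and 2 lower in HOXA13, or 9 of 48 against 14.1% of all tested genes. The 7 higher were Sema6a, Nrp2, Efna1, Sema3b, Sema3f, Ephb3 and Epha3, and the 2 lower were Sema3e and Sema4g. Epha3 passed the filter through the HOXA13 libraries alone, and without it 8 of 47 members remained, 6 higher and 2 lower. The fitted log2 fold change was above 0 for 26 members and below 0 for 22, with a median of 0.16 against -0.01 over all tested genes. This median ranged from -0.06 without HOXA13 2 to 0.10 without CONTROL 3 when each library was left out, with -0.02 without HOXA13 3, and it was 0.04 when each library was offset by its median deviation on a gene's chromosome. It was 0.33 with limma voom and 0.23 with the replicate number as a block. Family medians lay between -0.39 for the neuropilins and 0.33 for the class 4 semaphorins. The class 4 median was -0.15 with limma voom, -0.00 without CONTROL 2 and 0.05 with the chromosome offset, and the neuropilin median was -0.10 without CONTROL 1. With the chromosome offset, without CONTROL 2 and without HOXA13 2, the neuropilin median lay further below 0 than -0.39. With limma voom most other medians also lay outside -0.39 to 0.33. They included those of the EphA receptors (0.37), ephrin-A (-0.43), ephrin-B (-0.46) and plexin-B to D. The class 3 median was 0.82 in place of 0.19, and the plexin-A median -0.67 in place of -0.33. The class 5 to 7 median turned from -0.16 to 0.64. The 3 HOXA13 values lay above the 3 CONTROL values for 10 members, or 9 without Epha3 (11.5% of all tested genes did so), and below them for 6 (8.52% of all tested genes). DESeq2, the study's tool, gave 3 members of the 49 to which it gave an adjusted p, namely Sema6a, Nrp2 and Efna1, against 5.05% of all genes. With CONTROL 2 left out, edgeR gave 9 of 49, against 14.2% of all genes. These p-values measure the spread between 3 and 3 cultures, in which the biological coefficient of variation over all genes was 41.5%.

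**Figure D1:**
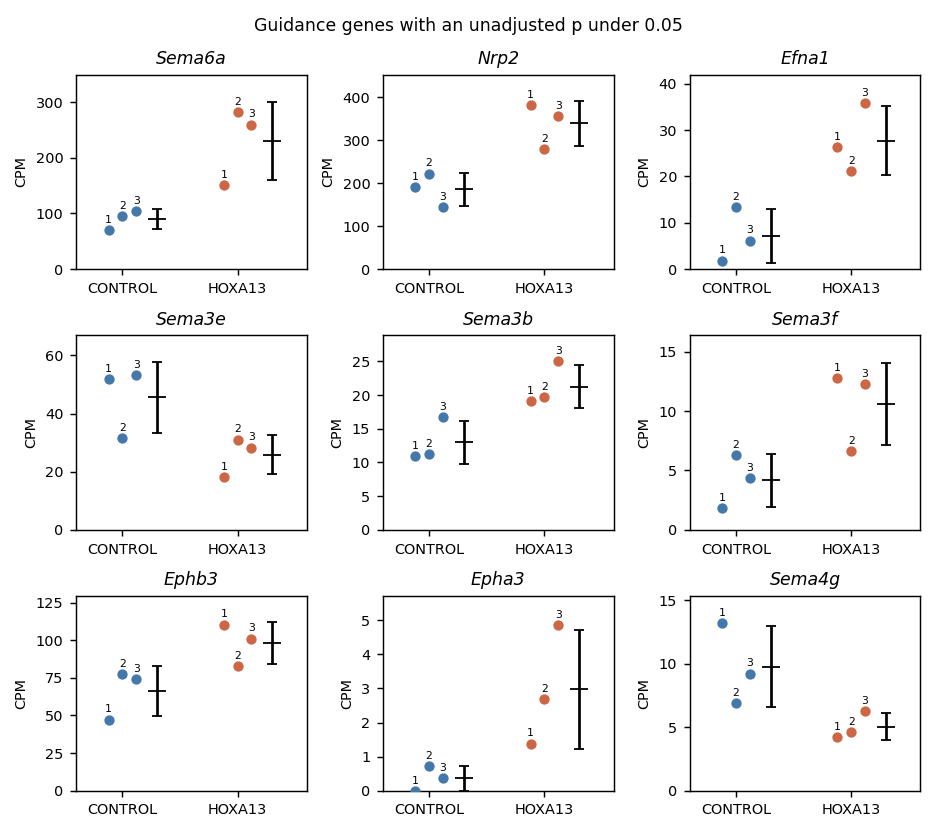
Level of the 9 guidance genes with an unadjusted p under 0.05, in CPM on a linear axis from 0, with 1 point per library, numbered by replicate, and the mean with SD of each group (n = 3). The groups do not overlap in any of the 9 panels, but in Sema3e and Sema3f the nearest values of the groups almost meet (31.5 and 31 CPM, 6.32 and 6.62 CPM).

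**Figure D2:**
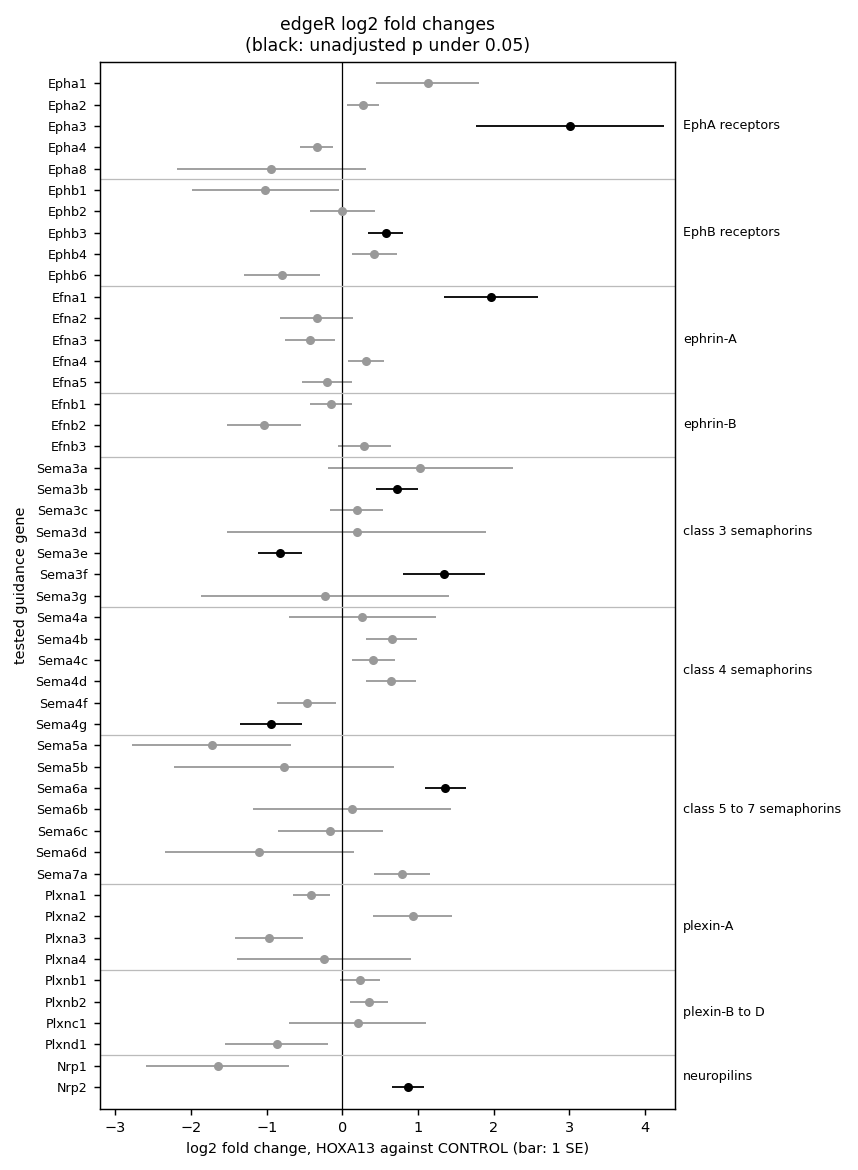
Fitted log2 fold change of HOXA13 against CONTROL for the 48 tested guidance genes by family, with bars of 1 standard error and black for an unadjusted p under 0.05. Points lie on both sides of 0 in each family, and the widest bars belong to low members such as Sema3d (SE 1.71) and Sema3g (SE 1.64).

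The level of these genes per length was set by a few members. Levels between genes are given as CPM per kb of exon, averaged over the 6 libraries. Epha2 stood highest at 129 CPM per kb, ahead of Plxna1 at 59.9, Plxnb2 at 36.9, Nrp2 at 27.6 and Efnb2 at 27.4. Next came Ephb4 at 20.1, Sema6a at 18.3, Efna5 at 17.7, Nrp1 at 14 and Sema3c at 13.6. Epha2 made up 80.2% to 88.3% of the summed EphA receptor level in each library, and Plxna1 93.1% to 96.3% of the plexin-A level. From Nrp2 down this order, each gene differed from the next by less than the larger of its group SDs over libraries. The first 4 kept their order in both groups. From Nrp2 to Sema3c each neighbouring pair stood in opposite orders in CONTROL and HOXA13, as with Nrp2 and Efnb2 (19.5 and 37 CPM per kb in CONTROL, 35.6 and 17.9 in HOXA13) or Nrp1 and Sema3c (21.3 and 12.7, then 6.77 and 14.5). The sum over the 20 semaphorins was 57.2, 59.3 and 71.6 CPM per kb in CONTROL and 73.9, 95.2 and 104 in HOXA13, without overlap, and Sema6a made up 13.9% to 18.4% of it in CONTROL and 23.3% to 33.8% in HOXA13. The nearest values, 71.6 in CONTROL 3 and 73.9 in HOXA13 1, included Sema6a shares of 16.6% and 23.3%. Without these shares CONTROL 3 lay above HOXA13 1. The lack of overlap thus rested on Sema6a and says nothing of the other semaphorins. The sums over Eph receptors, ephrins, plexins and neuropilins overlapped between the groups.

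**Figure D3:**
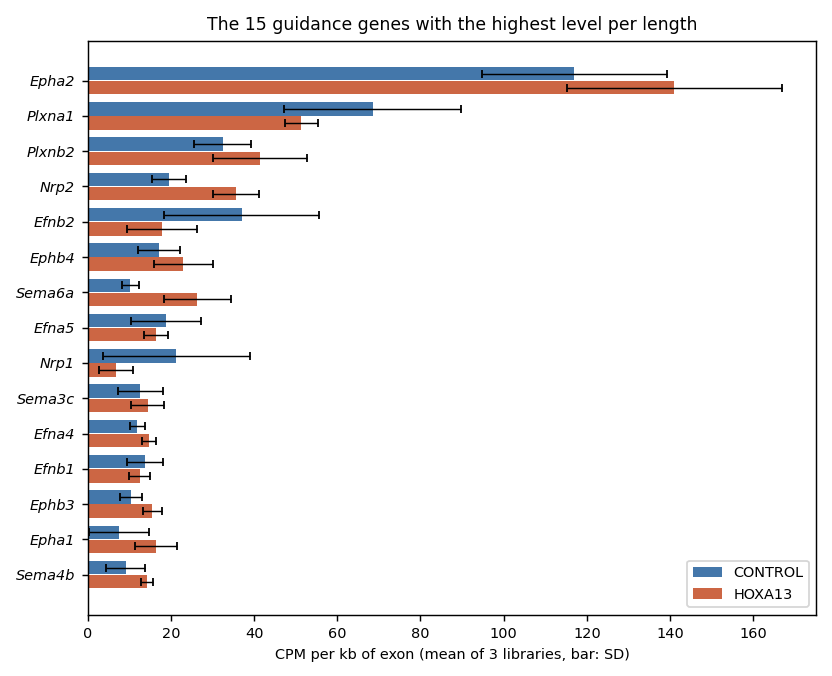
Mean level of the 15 guidance genes with the highest level per length, in CPM per kb of exon on an axis from 0, with bars of 1 SD over the 3 libraries of a group. Epha2 is highest in both groups (117 and 141), and the bars of Nrp1 and Efnb2 in CONTROL are wide (SD 17.7 and 18.7).

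Among the EphA receptors, 5 of 8 were tested, 3 with a fold change above 0 and 2 below, and Epha3 had the only unadjusted p under 0.05. Epha2, a kinase receptor common in epithelia, was at 435, 639.6 and 568 CPM in CONTROL 1, 2 and 3, against 537, 778 and 663 CPM in HOXA13 1, 2 and 3. Its groups overlapped, with a log2 fold change of 0.27 (SE 0.21, edgeR adjusted p 0.636) that ranged from 0.11 to 0.38 as each library was left out. Epha3, which binds ephrin-A ligands in mesenchyme and nervous system, had 0, 9 and 5 counts in CONTROL and 18, 46 and 80 counts in HOXA13. All HOXA13 values lay above all CONTROL values, but no CONTROL library reached the filter's 0.737 CPM, so that the gene was tested only through the HOXA13 libraries. Its log2 fold change was 3.01 (SE 1.24, unadjusted p 0.0417, edgeR adjusted p 0.329), from 2.41 without CONTROL 1 to 3.93 without CONTROL 2. Epha1 spread widely within CONTROL, at 5.18, 50.5 and 18.3 CPM, against 68.6, 35.8 and 57.1 CPM in HOXA13. CONTROL 2 reached the HOXA13 range, and the log2 fold change of 1.13 (SE 0.68, edgeR adjusted p 0.523) was 2.18 without that library (edgeR adjusted p 0.0223) and 0.62 without CONTROL 1 (edgeR adjusted p 0.784). Epha4 and Epha8 had log2 fold changes of -0.34 and -0.94, both with overlapping groups.

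Of the EphB receptors, which bind ephrin-B ligands, all 5 were tested. Ephb3, known for keeping cells in position along the intestinal crypt, was at 47.2, 77.3 and 73.9 CPM in CONTROL against 110.4, 82.9 and 101 in HOXA13. Every HOXA13 library lay above every CONTROL library, though HOXA13 2 exceeded CONTROL 2 by little. The means were 66.2 ± 16.5 and 97.9 ± 14 CPM (SD, n = 3), so that the log2 fold change was 0.57 (SE 0.23, unadjusted p 0.038, edgeR adjusted p 0.318). It was 0.35 without CONTROL 1 (edgeR unadjusted p 0.119) and 0.68 without CONTROL 2 (edgeR unadjusted p 0.0154). The edgeR unadjusted p was also above 0.05 without CONTROL 3 (0.0524), HOXA13 1 (0.127) or HOXA13 3 (0.108). Ephb4, the receptor of ephrin-B2 in veins, was the highest of the class per length, at 83.4, 54.4 and 101 CPM in CONTROL against 70.1, 117 and 133 in HOXA13. These groups overlapped, and the log2 fold change of 0.42 (SE 0.30, edgeR adjusted p 0.596) ranged from 0.20 without CONTROL 2 to 0.64 without HOXA13 1. Ephb1 was near the floor, with 15, 15 and 21 counts in CONTROL and 8, 4 and 17 counts in HOXA13. Its CPM did not overlap, with 1.06 as the lowest CONTROL and 1.03 as the highest HOXA13 value (log2 fold change -1.02, SE 0.97, edgeR adjusted p 0.713), and the fold change ranged from -1.60 to -0.65 as each library was left out. Ephb2, at a log2 fold change of 0.00 (SE 0.43), and Ephb6, at -0.80 (SE 0.50), overlapped.

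The ephrin-A ligands were all tested, 2 with fold changes above 0 and 3 below. Efna1, the main ligand of Epha2 in epithelia (build mm9, chromosome 3, 89075655 to 89085064, minus strand), was at 1.84, 13.4 and 6.15 CPM in CONTROL against 26.3, 21.1 and 35.8 in HOXA13. All HOXA13 values were above all CONTROL values, and CONTROL 1 stood lowest. The means were 7.14 ± 5.86 and 27.8 ± 7.45 CPM (SD, n = 3), so that the log2 fold change was 1.96 (SE 0.62, unadjusted p 0.0134, edgeR adjusted p 0.212.) DESeq2 gave an adjusted p of 0.0268, and edgeR a log2 fold change of 2.78 without CONTROL 2 (adjusted p 0.00956) and 1.48 without CONTROL 1 (adjusted p 0.332). In CONTROL both Efna1 and the epithelial marker sum were lowest in CONTROL 1 and highest in CONTROL 2. In HOXA13 both were highest in HOXA13 3, while Efna1 was lowest in HOXA13 2 and the marker sum in HOXA13 1. Efna5, the highest ephrin-A per length, was at 79.4, 41 and 109 CPM in CONTROL against 57.3, 79.1 and 61.9 in HOXA13. CONTROL 2 was the lowest and CONTROL 3 the highest of all 6, and the log2 fold change of -0.21 (SE 0.33, edgeR adjusted p 0.841) became 0.12 without CONTROL 3. Efna3 was at 10.4, 11.2 and 10.8 CPM in CONTROL against 8.15, 9.72 and 6.18 in HOXA13. It did not overlap, at a log2 fold change of -0.43 (SE 0.33, edgeR adjusted p 0.634), and 344 of its exon bases lie opposite another gene. Efna2 and Efna4 had log2 fold changes of -0.34 and 0.31, with overlapping groups.

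The 3 ephrin-B ligands did not reach an unadjusted p of 0.05. Efnb2, the arterial partner of Ephb4, was at 233, 74 and 224 CPM in CONTROL against 42.5, 123 and 92 in HOXA13. CONTROL 1 and CONTROL 3 lay above all HOXA13 libraries, and CONTROL 2 lay among them. The log2 fold change of -1.04 (SE 0.49, unadjusted p 0.0671, edgeR adjusted p 0.398) was -1.42 without CONTROL 2 (edgeR adjusted p 0.0286) and -0.73 without HOXA13 1 (edgeR adjusted p 0.655). Efnb1 and Efnb3 had log2 fold changes of -0.15 and 0.29. From highest to lowest, the libraries stood in the same order for Efnb2 and for the mesenchyme marker sum, except that CONTROL 2 and HOXA13 3, with nearly equal sums of 605 and 598 CPM, changed places. The part of these cells in Efnb2 was not tested.

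Class 3 semaphorins, the secreted ones, had 5 of 7 fold changes above 0. Sema3e (build mm9, chromosome 5, 14025276 to 14256689, plus strand), which binds plexin-D1 without a neuropilin and whose promoter is printed above, was at 51.9, 31.5 and 53.2 CPM in CONTROL against 18.2, 31 and 28.3 in HOXA13. All HOXA13 values were lower, although CONTROL 2 and HOXA13 2 lay side by side. The means were 45.5 ± 12.2 and 25.8 ± 6.73 CPM (SD, n = 3), so that the log2 fold change was -0.82 (SE 0.29, unadjusted p 0.0238, edgeR adjusted p 0.268). Without CONTROL 2 it was -1.04 (edgeR adjusted p 0.0262), and without HOXA13 1 it was -0.63 (edgeR adjusted p 0.501). Sema3f, a ligand of Nrp2 (build mm9, chromosome 9, 107583833 to 107612806, minus strand), was at 1.84, 6.32 and 4.35 CPM in CONTROL against 12.8, 6.62 and 12.3 in HOXA13. Here HOXA13 was higher without overlap, and the log2 fold change was 1.34 (SE 0.54, unadjusted p 0.0372, edgeR adjusted p 0.315). The edgeR unadjusted p of Sema3f ranged from 0.0102 without CONTROL 2 to 0.112 without HOXA13 3, and was above 0.05 in most of these fits. Sema3b, a ligand of both neuropilins, was at 10.9, 11.3 and 16.7 CPM in CONTROL against 19.1, 19.7 and 25 in HOXA13. It was higher in HOXA13 without overlap, with a log2 fold change of 0.72 (SE 0.28, unadjusted p 0.036, edgeR adjusted p 0.311). Its edgeR unadjusted p ranged from 0.0209 without CONTROL 3 to 0.151 without HOXA13 3, again above 0.05 in most of these fits.

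Sema3c was the highest class 3 member per length, at 97.7, 49.1 and 126 CPM in CONTROL against 73.8, 107 and 129.9 in HOXA13. The groups overlapped throughout, and the log2 fold change of 0.19 (SE 0.35, edgeR adjusted p 0.863) ranged from -0.12 to 0.48 as each library was left out. Sema3a, Sema3d and Sema3g stayed below 4 CPM in every library, with 0 counts in CONTROL 2 for Sema3a and Sema3d, in CONTROL 3 for Sema3g and in HOXA13 1 for Sema3d and Sema3g. The ratio of Sema3f to Sema3e per kb was 0.0772, 0.436 and 0.178 in CONTROL and 1.52, 0.465 and 0.947 in HOXA13. It was higher in every HOXA13 library, by 2.27 on the log2 scale, with a two-sided exact permutation p of 0.1, the smallest that the 20 splits of 3 against 3 allow. As both genes were among the 9 above, this ratio is a description of them and adds no further evidence.

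Among the class 4 semaphorins, transmembrane ligands mostly of plexin-B receptors, 4 of 6 had fold changes above 0. Sema4g (build mm9, chromosome 19, 45063591 to 45077887, plus strand) was at 13.2, 6.88 and 9.22 CPM in CONTROL against 4.23, 4.63 and 6.24 in HOXA13. All HOXA13 values were lower, with a log2 fold change of -0.95 (SE 0.41, unadjusted p 0.0488, edgeR adjusted p 0.351). The edgeR unadjusted p was 0.0179 without CONTROL 2 but above 0.05 with any other library left out, up to 0.17 without CONTROL 1. Sema4d, the ligand of plexin-B1, was at 11.1, 27.3 and 21.1 CPM in CONTROL against 33.5, 30.1 and 28.8 in HOXA13. It was higher without overlap, by a log2 fold change of 0.64 (SE 0.33, unadjusted p 0.0915, edgeR adjusted p 0.449). This value was 0.32 without CONTROL 1 and 0.92 without CONTROL 2. Sema4f was at 8.16, 7.84 and 9.45 CPM in CONTROL against 6.84, 7.26 and 4.24 in HOXA13, lower without overlap, with a log2 fold change of -0.47 (SE 0.39, edgeR adjusted p 0.662). This value ranged from -0.64 to -0.29 as each library was left out.

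Sema4b, the highest class 4 member per length, was at 29.1, 78.3 and 42.2 CPM in CONTROL against 76.6, 71.1 and 86.5 in HOXA13. CONTROL 2 lay within the HOXA13 range, and the log2 fold change of 0.65 (SE 0.34, edgeR adjusted p 0.45) was 1.11 without it (edgeR adjusted p 0.0109) and 0.35 without CONTROL 1 (edgeR adjusted p 0.817). Sema4c, whose promoter is printed above, was at 37.2, 20 and 31.1 CPM in CONTROL against 31.7, 38.8 and 46.9 in HOXA13. Its groups overlapped, and the log2 fold change of 0.41 (SE 0.28, edgeR adjusted p 0.58) turned to -0.16 when each library was offset by its median deviation on the gene's chromosome. As each library was left out, it ranged from 0.18 to 0.59. Sema4a overlapped as well, at 0.48 to 2.7 CPM.

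In classes 5 to 7, Sema6a gave the smallest p of all guidance genes. Sema6a, a transmembrane ligand of plexin-A2 and plexin-A4 (build mm9, chromosome 18, 47395252 to 47528524, minus strand), was at 69.7, 95.4 and 104 CPM in CONTROL against 151, 282 and 260.0 in HOXA13. The lowest HOXA13 library exceeded the highest CONTROL library by a clear margin, and HOXA13 1 was the lowest of its group. The means were 89.8 ± 18.0 and 231 ± 69.9 CPM (SD, n = 3), so that the log2 fold change was 1.36 (SE 0.27, unadjusted p 0.000945, edgeR adjusted p 0.0904.) DESeq2 gave an adjusted p of 0.000379, edgeR without the count filter 0.0379 and edgeR without CONTROL 2 0.0155. With the other 5 libraries left out in turn the edgeR adjusted p was 0.0766 to 0.496, and with the replicate block it was 0.165. The log2 fold change lay between 1.17 and 1.58 as each library was left out. Sema7a, a lipid-anchored ligand of plexin-C1 and integrins, was at 6.88, 13.4 and 16.3 CPM in CONTROL against 19.5, 17.1 and 26.4 in HOXA13. It was higher without overlap, with a log2 fold change of 0.79 (SE 0.37, unadjusted p 0.0659, edgeR adjusted p 0.395). This value was 0.48 without CONTROL 1 and 1.03 without CONTROL 3.

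Sema5a spread widely within both groups, at 23.1, 1.52 and 18.8 CPM in CONTROL against 0.615, 8.79 and 3.58 in HOXA13. CONTROL 2 and HOXA13 1 were lowest, and the libraries again stood in the order of the mesenchyme marker sum apart from CONTROL 2 and HOXA13 3. The log2 fold change of Sema5a was -1.73 (SE 1.05, edgeR adjusted p 0.527) and ranged from -2.80 to -1.24 as each library was left out. Sema5b, Sema6b and Sema6d reached at most 3.37 CPM and Sema6c at most 9.75 CPM, all with overlapping groups. Sema6b and Sema6d had 0 counts in HOXA13 1, and Sema5b had 0 counts in CONTROL 3.

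Of the plexins, 8 of 9 were tested, 4 with fold changes above 0 and 4 below, and none reached an unadjusted p of 0.05. Plxna1, the main class 3 co-receptor by level, was at 705, 398 and 752 CPM in CONTROL against 437, 503 and 452 in HOXA13. CONTROL 1 and CONTROL 3 lay above all HOXA13 libraries and CONTROL 2 below them, and 970 of its exon bases lie opposite another gene. Its log2 fold change of -0.41 (SE 0.24, edgeR adjusted p 0.513) was -0.67 without CONTROL 2 (edgeR adjusted p 0.0154) and -0.27 without CONTROL 3 (edgeR adjusted p 0.842). Plxna2, a receptor of Sema6a, was at 30.6, 6.4 and 29 CPM in CONTROL against 31.8, 51.9 and 42.5 in HOXA13. It was higher without overlap, but the log2 fold change of 0.93 (SE 0.52, unadjusted p 0.109, edgeR adjusted p 0.484) was 0.48 without CONTROL 2, 1.23 without CONTROL 1 and 0.37 with the chromosome offset. Plxna3 was at 8.09, 12.8 and 8.62 CPM in CONTROL against 7.53, 4.28 and 3.27 in HOXA13, lower without overlap (log2 fold change -0.97, SE 0.45, unadjusted p 0.064, edgeR adjusted p 0.391). The ratio of Plxna2 to Plxna1 per kb was at 0.00962 to 0.026 in CONTROL and 0.0436 to 0.0616 in HOXA13 without overlap, a description that adds no further evidence, as Plxna2 alone was already without overlap and lies on chromosome 1. Plxna4 was at most 2.48 CPM, with overlap.

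Plxnb2, the receptor of class 4 semaphorins with the highest level, was at 279, 182 and 252 CPM in CONTROL against 207, 353 and 349 in HOXA13. The groups overlapped through HOXA13 1, and the log2 fold change of 0.35 (SE 0.25, edgeR adjusted p 0.611) ranged from 0.18 to 0.55 as each library was left out. Plxnb1, the Sema4d receptor, overlapped at a log2 fold change of 0.23 (SE 0.26). Plxnd1, the Sema3e receptor, was at 23.5, 4.08 and 15.1 CPM in CONTROL against 3.38, 12.9 and 6.91 in HOXA13, and Plxnc1, the Sema7a receptor, at 2.34, 17.7 and 2.17 CPM and 14.9, 7.5 and 3.21 CPM. These receptors ran opposite to each other, as CONTROL 2 and HOXA13 1 were the lowest libraries for Plxnd1 and CONTROL 2 and HOXA13 1 the highest for Plxnc1. Their log2 fold changes were -0.87 (SE 0.68, edgeR adjusted p 0.641) and 0.20 (SE 0.90, edgeR adjusted p 0.952). For Plxnd1 the value ranged from -1.49 without HOXA13 2 to -0.32 without CONTROL 1. For Plxnc1 it ranged from -0.48 without HOXA13 1 to 1.89 without CONTROL 2 (edgeR adjusted p 0.102).

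The neuropilins went opposite ways in fold change. Nrp2 (build mm9, chromosome 1, 62749859 to 62865269, plus strand), the receptor of Sema3f, was at 190.1, 222 and 144 CPM in CONTROL against 381, 279.8 and 356 in HOXA13. All HOXA13 libraries lay above all CONTROL libraries, with means of 185 ± 39.2 and 339 ± 52.7 CPM (SD, n = 3). The log2 fold change was 0.87 (SE 0.21, unadjusted p 0.00295, edgeR adjusted p 0.124), and DESeq2 gave an adjusted p of 0.0128. As each library was left out, the edgeR adjusted p ranged from 0.0109 without CONTROL 2 to 0.537 without HOXA13 3. Genes of chromosome 1 were higher in HOXA13 as a whole, with 472 of them at a median log2 fold change of 0.53. With each library offset by that deviation, the log2 fold change of Nrp2 was 0.28 and its unadjusted p 0.22. The other chromosome 1 members are Epha4, Plxna2 and Sema4c, and Epha4 had -0.91 with the offset (unadjusted p 0.00363, edgeR adjusted p 0.164) in place of -0.34.

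Nrp1, the receptor of Sema3a and also a co-receptor for vascular endothelial growth factor, was at 211, 9.11 and 158 CPM in CONTROL against 13.2, 59 and 47.8 in HOXA13. The lowest libraries were CONTROL 2 and HOXA13 1, and the groups overlapped. The log2 fold change was -1.65 (SE 0.94, edgeR adjusted p 0.499) and ranged from -1.07 without CONTROL 1 (edgeR adjusted p 0.85) to -2.21 without CONTROL 2 (edgeR adjusted p 0.0173). Per kb, the ratio of Nrp2 to Nrp1 was 0.561, 15.1 and 0.566 in CONTROL and 17.9, 2.95 and 4.63 in HOXA13. Nrp2 was the higher of both in all HOXA13 libraries and in CONTROL 2, and Nrp1 in CONTROL 1 and CONTROL 3. The difference of 1.89 on the log2 scale had a two-sided exact permutation p of 0.3 (n = 3 a group). The libraries with more Nrp1 than Nrp2 were those with the highest mesenchyme marker sums, 6463 and 4271 CPM, and the part of these cells in the ratio was not tested.

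**Figure D4:**
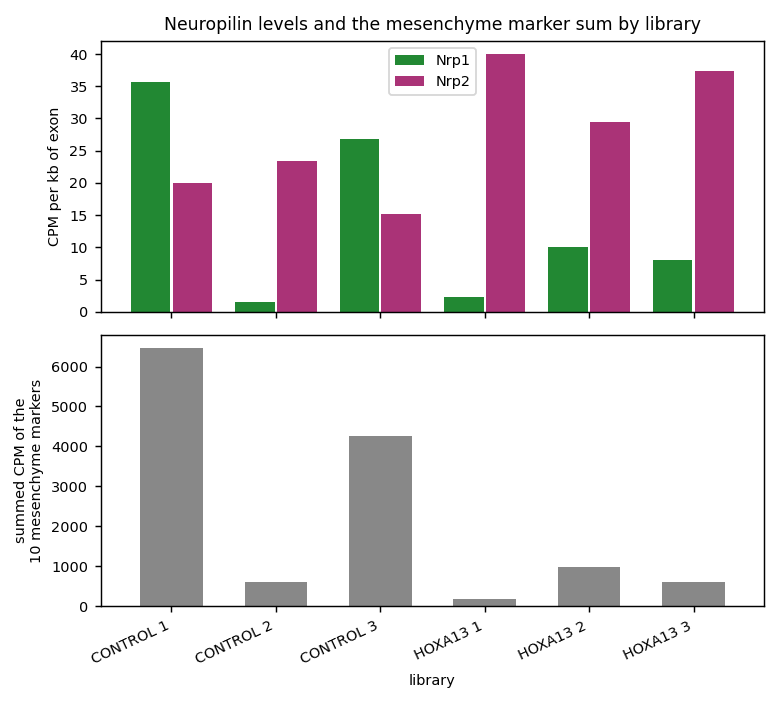
Above, the level of Nrp1 and Nrp2 in each library in CPM per kb of exon, and below, the summed level of the 10 mesenchyme and feeder markers in CPM, both on axes from 0. Nrp1 exceeds Nrp2 in CONTROL 1 and CONTROL 3 alone, the libraries with marker sums of 6463 and 4271 CPM.

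The split between libraries that Nrp1 showed was shared by other members. For 11 of 48 (22.9%, against 15.2% of all tested genes) the lowest libraries were CONTROL 2 and HOXA13 1, namely Efna5, Efnb2, Ephb4, Nrp1, Plxna1, Plxnb2, Plxnd1, Sema3c, Sema3d, Sema5a and Sema6d. For 15 of 48 (31.2%, against 23.9% of all tested genes) CONTROL 1 was lowest, and these included Efna1, Epha1, Epha2, Ephb3, Sema3b, Sema3f, Sema4b, Sema4d, Sema6a and Sema7a. For 14 of 48 (29.2%, against 21.7% of all tested genes) CONTROL 2 was lowest. CONTROL 1 and CONTROL 2 had the lowest and the highest epithelial marker sum of the CONTROL group, at 1696 and 5656 CPM. For 3 of 48 (6.25%, against 14.8% of all tested genes) the highest libraries were CONTROL 2 and HOXA13 1, namely Efna2, Plxnb1 and Plxnc1. Without CONTROL 2, the 9 members past the adjusted threshold in edgeR were Efna1, Epha1, Nrp2, Sema4b and Sema6a, all higher in HOXA13, and Efnb2, Nrp1, Plxna1 and Sema3e, all lower. In that fit 14.2% of all genes passed, against which these 9 of 49 are to be read.

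**Figure D5:**
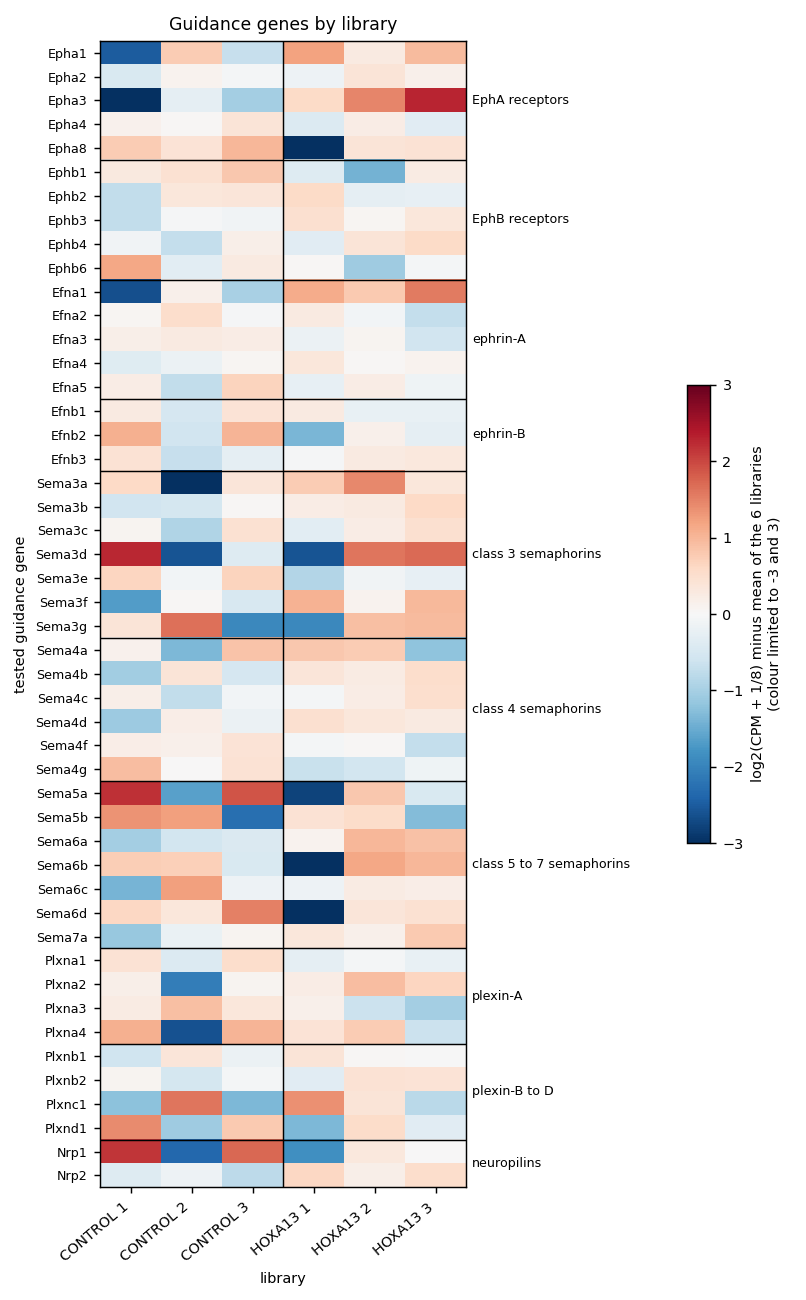
Level of the 48 tested guidance genes in each library as log2(CPM + 0.125) minus the mean of the 6 libraries, by family, with red above and blue below the mean and the colour limited to -3 and 3. Nrp1, Sema5a and Plxnd1 are blue in CONTROL 2 and HOXA13 1, and Efna1, Sema6a and Nrp2 are redder in the HOXA13 columns.

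Genes of the same pathways were read from lists chosen for their role, and none of their members passed the threshold in edgeR. Of 20 genes of the other guidance families (netrins, slits, RGM proteins and their receptors), 18 were tested, 5 with fold changes above 0 and 13 below, with a median of -0.96. In this list 6 genes had an unadjusted p under 0.05, all lower in HOXA13, as were 819 of the 13600 tested genes. Robo2, a slit receptor, was at 118, 4.56 and 66.5 CPM in CONTROL against 1.54, 5.1 and 4.97 in HOXA13. CONTROL 2 lay at the HOXA13 level, with a log2 fold change of -4.01 (SE 1.02, unadjusted p 0.00439, edgeR adjusted p 0.146). Ntn4, a secreted netrin, and Rgmb, a ligand of neogenin, were lower without overlap, with log2 fold changes of -2.33 (SE 0.63, edgeR adjusted p 0.16) and -0.85 (SE 0.28, edgeR adjusted p 0.228).

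Of 22 partners and effectors of the Eph receptors and ephrins, 11 had fold changes above 0 and 11 below, with a median of 0.00 and 3 unadjusted p-values under 0.05, against 14.1% of all tested genes. Nck2, an adaptor that Eph receptors recruit, was at 33.4, 39.4 and 39 CPM in CONTROL against 65, 63 and 79.2 in HOXA13. It was higher without overlap (log2 fold change 0.89, SE 0.19, unadjusted p 0.00142, edgeR adjusted p 0.102), but it lies on chromosome 1, and the offset left a log2 fold change of 0.31. Vav3, which acts downstream of Eph receptors, had a log2 fold change of 1.89 (SE 0.53, edgeR adjusted p 0.169) and the kinase gene Abl1 one of -0.62 (SE 0.25, edgeR adjusted p 0.322). Of 26 partners and effectors of semaphorins and plexins, 11 had fold changes above 0 and 15 below, with a median of -0.05 and 5 unadjusted p-values under 0.05, all lower, as were 819 of the 13600 tested genes. Kdr, the vascular endothelial growth factor receptor that joins neuropilins, was at 125, 66.8 and 137 CPM in CONTROL against 44.3, 43.6 and 27.9 in HOXA13. It was lower without overlap, with a log2 fold change of -1.51 (SE 0.31, unadjusted p 0.00128, edgeR adjusted p 0.0999), while of the other endothelial markers Cdh5, Tie1 and Erg were at most 1.35 CPM and Pecam1 and Tek at most 5.6 CPM. Crmp1, a cytoplasmic mediator of Sema3a, had a log2 fold change of -2.19 (SE 0.52, edgeR adjusted p 0.124), and Mical1, an oxidase bound by plexin-A, had -1.36 (SE 0.40, edgeR adjusted p 0.186). Of the 66 tested genes of the 3 lists, DESeq2 gave 8 an adjusted p under 0.05, against 5.05% of all genes, and edgeR without CONTROL 2 gave 16, against 14.2% of all genes.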

How the data were processed

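RNA from 3 CONTROL and 3 HOXA13 cultures was sequenced from stranded poly-A libraries with 75-base reads. The files hold read counts for each gene symbol, not normalised, which the authors made by alignment to mm9 with TopHat2 (2.0.14 in the submitters' processing notes, beside bcl2fastq 2.17) and counting with HTSeq 0.6.1p1. The annotation, strand option and handling of reads with several alignments are not given in the sources used here, so overlapping genes are uncertain.

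Genes were filtered with filterByExpr (minimum count 10, total 15), which kept 13600, scaled by the trimmed mean of M-values method (TMM) and compared with the quasi-likelihood test of edgeR 4.0.16 (R 4.3.3) in a model of the group alone, at a Benjamini-Hochberg adjusted p of 0.05. Alternatives were DESeq2 1.42.0, limma 3.58.1 voom with sample quality weights, the edgeR 4 method, RLE and upper quartile scaling, no filter, a mean of at least 50 counts, a chromosome offset, a replicate block and leaving out each library. The code was tested on simulated data. Groups and replicate numbers came from the titles. Same-numbered libraries did not deviate together.

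Positions and exon lengths came from GENCODE M1 on mm9, and promoters from RefSeq on GRCm38.p6. No stretch of 75 bases was shared with a protein-coding transcript of another gene for any tested member except Sema6d (0.107% of its stretches). Pseudogenes and other non-coding transcripts were not searched. Values are given for members with an unadjusted p under 0.05, no overlap between groups or the highest level per length of a family, and for 6 others chosen after their values were seen (Epha1, Sema4c, Sema5a, Plxnc1, Plxnd1 and Nrp1). Members and lists were chosen with earlier results of these data known. Of the genes matching the symbol rule, 1 is not reported here.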

Additional observations from a re-analysis of the deposited data

How the results depend on the processing

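With edgeR 0 of 48 members passed the adjusted threshold, and 9 had an unadjusted p under 0.05. The count past the threshold was 3 with DESeq2, 8 with limma voom with sample quality weights and 1 without a filter, and it ranged from 0 to 9 as each library was left out, with 9 without CONTROL 2 and 0 in the other 5 fits. The count at an unadjusted p under 0.05 was 22 with voom and ranged from 3 (without CONTROL 1) to 20 (without CONTROL 2) as each library was left out. The share of all genes at that p is given for the main fit alone (14.1%). The counts in the other fits are therefore no result about the members. Over all genes, 42 passed in edgeR, 722 with DESeq2, 2101 with voom, 106 with the edgeR 4 method, 163 without a filter, 9 when a mean of 50 counts was required, 1 with the chromosome offset and 0 to 2006 as each library was left out. Of the genes of the 3 pathway lists, 0 passed in edgeR, 8 with DESeq2, 11 with voom, 1 without a filter and 0 to 16 as each library was left out. RLE and upper quartile scaling left the members past the threshold at 0.

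With the replicate number as a block, 0 members passed, 5 had an unadjusted p under 0.05 (Efna1, Epha3, Nrp2, Sema3b and Sema6a) and 0 genes passed over the whole table. Of these 5, Epha3 was tested only through the HOXA13 libraries. The share of all genes at that p with the block is not given, so the 5 are no result about the members. The numbers come from the titles, and the deviations of same-numbered libraries correlated at -0.187, -0.248 and 0.0818 across genes, against a mean of 0.0665 for libraries of different number.

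Of 448 values under these settings, of the 30 members given in every library, 420 kept their direction and their side of the threshold, 21 kept their direction and came past it, and 7 changed sign. Efna5 ranged from -0.52 to 0.12 as each library was left out, and Sema3c from -0.12 to 0.48, with -0.12 without CONTROL 2 and -0.02 without HOXA13 3. Plxnc1 ranged from -0.48 to 1.89, with -0.26 without CONTROL 1 and -0.25 without CONTROL 3, and Sema4c was -0.16 with the chromosome offset. Of 150 family medians, 138 moved by less than the spread between libraries and 12 by more. What caused these differences was not tested. Where a library holds 0 counts of a member, the depth allows up to 0.240 CPM, from counting error only.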
